A study of Glycine max with 12 samples.

Results

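The ageing of the leaf was followed in the soybean line GmNAC81-3, which overexpresses the NAC transcription factor GmNAC81, by setting leaves at R6 against leaves at V3 of the same line. The comparison rested on 6 of the 12 libraries of the series, 3 of GmNAC81-3 at R6 and 3 of GmNAC81-3 at V3, chosen by their labels. The R6 leaves, at the full seed stage, came from plants at 80 days after germination (DAG), and the V3 leaves, from vegetative plants, at 20 DAG. Each library came from the third leaf of a plant grown under normal conditions. GmNAC81-3 is a single transgenic line of the cultivar BR16 with GmNAC81 under the constitutive 35S promoter, and the leaves of both stages carried the transgene. The untransformed cultivar BR16, with 3 libraries at R6 and 3 at V3, stood beside it. Of 52660 loci in the table, 39443 had enough counts to be tested in the model of all 12 libraries and 13217 did not.

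An ageing leaf passes from making carbohydrate to giving up its nitrogen. Chloroplasts are taken apart, their proteins are cut by proteases, and the nitrogen leaves as glutamine and other amino acids for the growing seed. NAC and WRKY transcription factors, together with abscisic acid, ethylene, jasmonate and salicylate, are known to set the timing of these steps. In soybean, GmNAC81 is known as a factor of a stress-induced cell death pathway that ends at vacuolar processing enzymes (VPEs), cysteine proteases of the vacuole.

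In GmNAC81-3, 6493 loci were higher at R6 than at V3 (16.5% of those tested) and 7917 were lower (20.1%). A locus was called at a Benjamini-Hochberg adjusted p under 0.05 from edgeR's quasi-likelihood test together with a log2 fold change above 1 or below -1. All fold changes are R6 over V3. Levels are given as CPM, the counts scaled to a common library size by TMM, a scaling that holds the bulk of the loci level between libraries, and are not corrected for gene length. The median log2 fold change was 2.06 among the loci called higher and -2.31 among those called lower. The falls were the larger group at each size of change. Changes of more than 5 on the log2 scale, for example, were met at 540 loci upward and 1012 downward. The 3 R6 libraries did not overlap with the 3 V3 libraries at 20593 loci, 52.2% of those tested. They stood apart at 6350 of the 6493 loci called higher and at 7364 of the 7917 called lower. At 753 of the loci called higher, V3 had no more than 3 counts in any library, and at 678 of those called lower the same held of R6. For these, at most a lower bound of the fold can be given. It was given at all 753 and at 673 of the 678, since the rest were at or under 3 counts in both stages.

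The split between rises and falls rests on the scaling. The TMM factors lay between 0.931 and 1.44 at R6 and between 0.498 and 0.657 at V3, and with the library totals taken as they were, an alternative chosen after seeing the data, the middle log2 fold change of the whole set moved to 1.07, against 0.026 with TMM. The same test then called 18682 loci higher and 3975 lower. All 6493 rises were called again, but this upward shift of the whole set could hardly take a rise out of the call. Only 3974 of the 7917 falls were called again, and 176 changed sign. All changes below are therefore relative to the bulk of the loci. The loci called lower held 15.3, 16 and 17.2% of the counts of the R6 libraries, against 40.1, 27.1 and 31.6% of the V3 libraries. The loci called higher held 7.14, 11.7 and 8.55% at R6, against 0.921, 0.934 and 1.15% at V3.

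**Figure D1:**
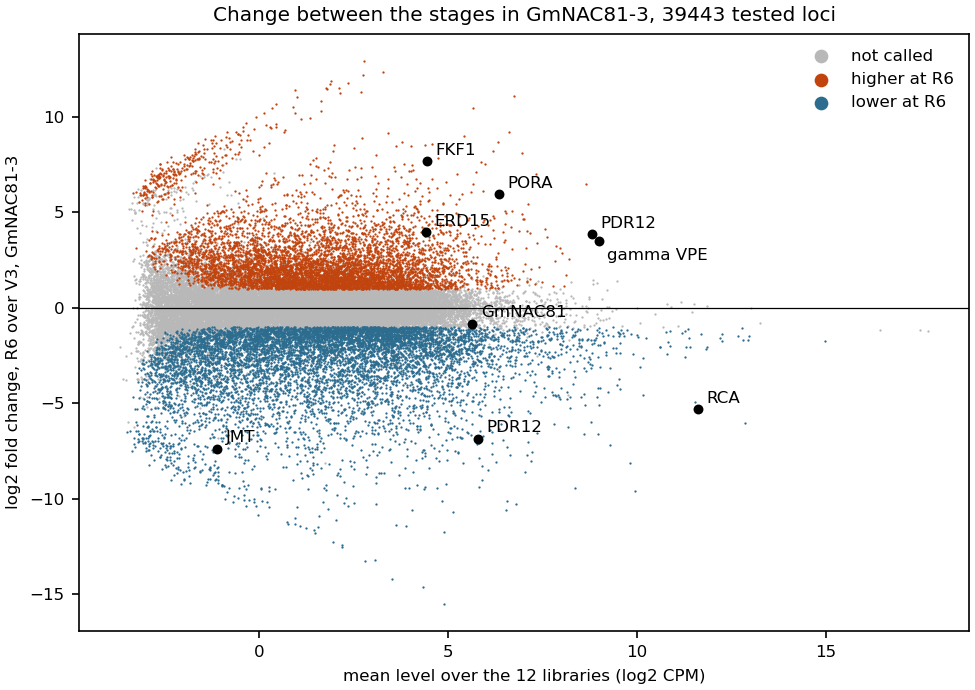
Log2 fold change of R6 over V3 in GmNAC81-3 (vertical axis) against the mean level over the 12 libraries in log2 CPM (horizontal axis), with 1 point for each of the 39443 tested loci and black points for loci named in the text. Rises (6493) and falls (7917) were met at all levels, and the sloping bands at low levels are loci with 1 stage at or near 0 counts, whose fitted fold is no measure of size.

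The effective library sizes after TMM, on which CPM and tests rest, were 60408529 to 94243011 at R6 and 24616001 to 30288987 at V3. The same few counts thus stand for a higher CPM at V3 than at R6. The library totals were closer, with 54282911 to 65381987 counts at R6 and 42797825 to 54670507 at V3. A large and variable part of them, 54.2, 38.6 and 43.4% at R6, against 44.1, 58.5 and 51.3% at V3, fell on 3 loci, and the difference between the stages in this share did not pass an exact two-sided permutation test (p = 0.4, where 3 against 3 libraries allow no less than 0.1). The spread between libraries was wider at V3, where the median SD of a locus was 0.464 on the log2 CPM scale, against 0.305 at R6. V3 replicate 1 lay farthest from the others of its stage, at a median distance of 0.551 in log2 CPM, against 0.39 and 0.46 for V3 replicates 2 and 3. Each stage was a sequencing set of its own, and the effects of both cannot be told apart. In bulk leaf RNA, fewer cells of a type and less RNA per cell cannot be told apart either. Rubisco activase, a defining enzyme of green leaf cells, was present in all 6 libraries.

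GmNAC81 itself (Glyma.12G022700) had 46.6, 53.5 and 69.1 CPM at R6, against 81.8, 184 and 33.4 CPM at V3. The stages overlapped, and the log2 fold change of -0.82 (SE 0.62) did not pass the test (edgeR adjusted p = 0.30). The sign of this value turned with the library totals, to 0.34 (edgeR adjusted p = 0.651). The table holds a second entry for the gene, marked as a terminator, that took 52.8% ± 3.17 (SD, n = 3) of its counts at R6 and 53.6% ± 2.79 (SD, n = 3) at V3. In untransformed BR16, this entry still took 34.6% ± 0.98 at R6 and 34.8% ± 0.80 at V3 (SD, n = 3 each), so that the entries do not separate transgene from endogenous gene.

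An ERD15 locus and the VPE loci rose at R6. A soybean ERD15 is known as an upstream activator in the cell death pathway of GmNAC81, but the study's text gives no locus for it. The locus named ERD15 here (Glyma.11G149900) had 47.0, 18.95 and 53.3 CPM at R6, against 0.726, 1.18 and 5.62 CPM at V3. This is a rise of 15.8-fold (log2 fold change 3.98, SE 0.87, edgeR adjusted p = 0.00314), with every R6 library above every V3 library. The 4 VPE loci all rose. The γVPE Glyma.17G230700 had 1484, 1686 and 648.5 CPM at R6, against 13.01, 154 and 174 CPM at V3 (log2 fold change 3.48, SE 0.74, edgeR adjusted p = 0.00269). Its gain in mean CPM was the greatest of all called loci. The γVPE Glyma.14G092800 had 1115, 644 and 397 CPM at R6, against 29.0, 155 and 180 CPM at V3 (log2 fold change 2.56, SE 0.60, edgeR adjusted p = 0.00486). At both loci, V3 replicate 1 was far below the other V3 libraries. The third γVPE, Glyma.04G049900, rose less, with a log2 fold change of 1.18 (SE 0.34, edgeR adjusted p = 0.0138), and fell under the fold limit without V3 replicate 1 (0.89, edgeR adjusted p = 0.0282). Glyma.05G055700, a βVPE of low level, had 5.88, 3.87 and 5.32 CPM at R6, against 1.59, 2.36 and 1.35 CPM at V3 (log2 fold change 1.51, SE 0.26, edgeR adjusted p = 0.000753).

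**Figure D2:**
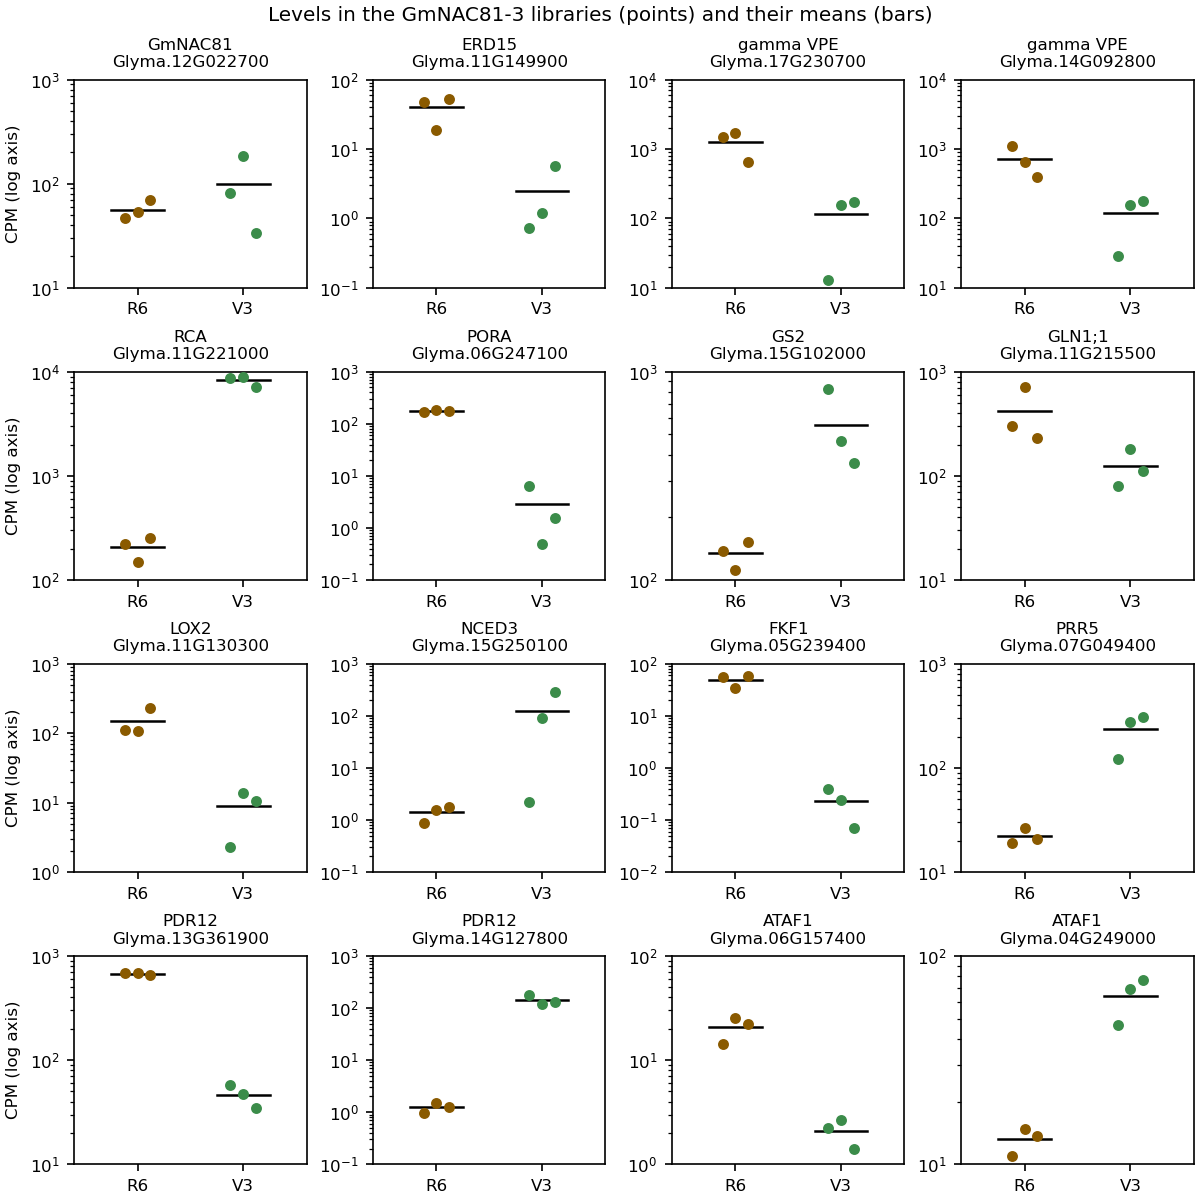
Level of 16 loci in CPM (vertical, log axes that differ between panels) in the 3 R6 and the 3 V3 libraries of GmNAC81-3, with 1 point per library and a bar at the mean. GmNAC81 overlaps between the stages, the other 15 loci do not, and V3 replicate 1 is low for both γVPE loci and for NCED3.

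The groups of loci by role, here and below, come mostly from the study's supplementary lists and do not cover whole pathways. Those lists were chosen on GmNAC81-3 against BR16 at V3. A locus was counted in 1 group at most, so that the shares of a group depend on how it was drawn. Most photosynthesis loci of the lists fell. Of 19 loci with a role in the chloroplast or in photorespiration, 14 were lower at R6 (73.7%, against 20.1% of all tested loci), 1 was higher and 4 were not called, with a median log2 fold change of -2.31, against 0.026 over all tested loci. With the library totals the same 14 kept their negative sign and 10 were still called. All 4 loci of rubisco activase (RCA), which keeps the carbon-fixing enzyme active, fell. The leading one, Glyma.11G221000, had 221, 147 and 256 CPM at R6, against 8674, 8943 and 7203 CPM at V3. This is a fall of 39.8-fold (log2 fold change -5.31, SE 0.53, edgeR adjusted p = 1.68e-05), and it was among the 6 greatest losses of CPM of called loci. The other RCA loci had log2 fold changes of -4.90 (Glyma.18G036400), -3.55 (Glyma.14G067000) and -2.81 (Glyma.02G249600). Both loci of CSP41B, a chloroplast RNA-binding protein, both of STN7, a kinase of the thylakoid, and both of serine transhydroxymethyltransferase, an enzyme of photorespiration, fell as well, though the last pair was not called with the library totals. Of these, CSP41B Glyma.03G230000 had 100.6, 60.6 and 113 CPM at R6, against 1192, 837 and 699 CPM at V3. The peroxisomal catalase CAT2 fell at 2 of its 3 loci, by 2.31 on the log2 scale at Glyma.06G017900.

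The exception in this group was PORA (Glyma.06G247100), an enzyme of chlorophyll synthesis that is known from dark-grown seedlings. It had 166, 183 and 176 CPM at R6, against 6.41, 0.488 and 1.57 CPM at V3, a rise of 61.6-fold (log2 fold change 5.94, SE 0.73, edgeR adjusted p = 7.19e-05). GNC (Glyma.17G055200), a GATA factor that promotes chloroplast growth in Arabidopsis, fell to 1.95, 0.424 and 0.735 CPM at R6, against 29.75, 24.1 and 12.4 CPM at V3. The 2 loci of pheophorbide a oxygenase, which opens the ring of chlorophyll during its breakdown, had log2 fold changes of -0.76 and -0.27 and were not called.

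Of 19 tested loci of nitrogen and carbon use, 6 were higher (31.6%, against 16.5% of all tested loci), 7 were lower (36.8%, against 20.1%) and 6 were not called. All 3 loci of the chloroplast glutamine synthetase GS2, which serves photorespiration, fell, while both loci of the cytosolic GLN1;1, a form tied to the export of nitrogen, rose. GS2 Glyma.15G102000 had 137, 112 and 153 CPM at R6, against 828, 465 and 366 CPM at V3 (log2 fold change -2.05, SE 0.45, edgeR adjusted p = 0.00332). GLN1;1 Glyma.11G215500 had 303, 713 and 233 CPM at R6, against 80.8, 181 and 112 CPM at V3 (log2 fold change 1.74, SE 0.44, edgeR adjusted p = 0.00708). The stages stood apart at both. The call of the other GLN1;1 locus, Glyma.02G244000, was lost without R6 replicate 1 (log2 fold change 1.08, edgeR adjusted p = 0.085) and without V3 replicate 3 (1.89, edgeR adjusted p = 0.0554). With the library totals, GS2 Glyma.13G210800 fell short of the fold limit at -0.93.

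Of 4 loci of NRT1.5, a nitrate transporter of the xylem, 2 fell. It had 4.22, 1.59 and 1.69 CPM at R6 at Glyma.05G070600, against 28.95, 50.5 and 34.0 CPM at V3, a fall of 15.1-fold (log2 fold change -3.92, SE 0.44, edgeR adjusted p = 3.94e-05). A second NRT1.5 locus, Glyma.17G153300, fell by 2.50 on the log2 scale. The remaining 2 loci, at 1.98 and 1.52 CPM on average at R6, were not called. Of these, Glyma.09G237600 had 2.98, 1.44 and 1.501 CPM at R6, against 2.31, 0.163 and 0.0711 CPM at V3. V3 replicate 1 alone was high, and without it the log2 fold change of 1.19 moved to 4.09 (edgeR adjusted p = 0.000151); it was also called with the library totals (2.19, edgeR adjusted p = 0.0253). Among genes of sugar use, a neutral invertase, which splits sucrose, was 15.8-fold higher (Glyma.17G037400, log2 fold change 3.98, SE 0.50, edgeR adjusted p = 7.96e-05). Both loci of the glucose sensor HXK1 rose too, Glyma.05G226600 to 48.3, 38.3 and 29.2 CPM at R6, against 7.46, 4.06 and 3.63 CPM at V3. KIN10 (Glyma.08G240400), a kinase that senses low energy, had 6.11, 8.73 and 7.31 CPM at R6, against 4.09, 6.09 and 1.28 CPM at V3 and was not called (log2 fold change 0.95, edgeR adjusted p = 0.0826). It passed without V3 replicate 2 (1.47, edgeR adjusted p = 0.0197) and with the library totals (2.12, edgeR adjusted p = 0.00192).

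**Figure D3:**
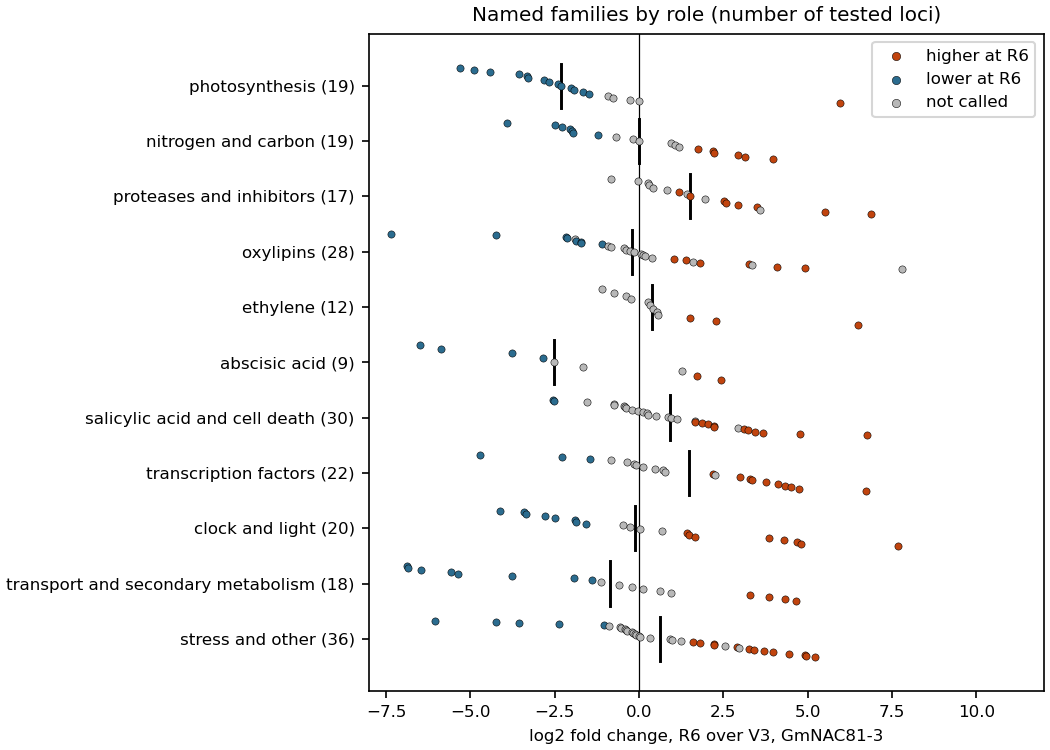
Log2 fold change of R6 over V3 in GmNAC81-3 (horizontal axis) of the tested loci of the named families, grouped by role (rows, with the number of loci), with 1 point per locus, coloured by its call, and a black bar at the median of each row. The photosynthesis row lies to the left except for PORA, no protease or inhibitor locus was called lower, and several rows hold strong changes both ways.

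Among proteases and their inhibitors, 8 of 17 tested loci rose (47.1%, against 16.5% of all tested loci) and none fell (against 20.1%). Besides the VPEs, a matrix metalloproteinase rose to 6.89, 5.18 and 6.23 CPM at R6, against 1.85, 0.488 and 0.782 CPM at V3 (Glyma.09G065900, log2 fold change 2.53, SE 0.36, edgeR adjusted p = 0.000195). KTI1, a Kunitz inhibitor of trypsin-like proteases that limits cell death in Arabidopsis, was called higher at 3 of 5 tested loci, which lie together on chromosome 8. How reads common to such neighbours were counted was not given in the sources used here, so that the split between them is uncertain. At Glyma.08G341800 the R6 libraries had 223, 174 and 760 counts, against 2, 0 and 2 at V3, so that it was at least 48.4-fold higher (edgeR adjusted p = 0.00245), or at least 22.7-fold without R6 replicate 3. R6 replicate 3 was the highest at all 3 of these loci, and without it the calls of Glyma.08G341600 and Glyma.08G342100 were lost (edgeR adjusted p = 0.243 and 0.0667). Those 2 calls were also lost without V3 replicate 1 or 2 (edgeR adjusted p from 0.0678 to 0.0931), and that of Glyma.08G342100 without V3 replicate 3 (edgeR adjusted p = 0.0688).

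The oxylipin pathway, which leads through lipoxygenases (LOX) to jasmonate, had 6 of 28 tested loci higher (21.4%, against 16.5% of all tested loci) and 8 lower (28.6%, against 20.1%), shares near those of all loci. With the library totals, 2 of these 8 falls were called and 1 changed sign. Among the chloroplast LOX2 genes, Glyma.11G130300 rose to 113, 109 and 233 CPM at R6, against 2.31, 13.9 and 10.6 CPM at V3 (log2 fold change 4.08, SE 0.60, edgeR adjusted p = 0.000235). A second LOX2 locus, Glyma.13G030300, had 17.9, 52.6 and 57.7 CPM at R6, against 0.330, 1.38 and 2.49 CPM at V3. LOX1, a form outside the chloroplast, fell at 2 of 5 loci. At Glyma.08G189600 it had 0.166, 0.361 and 0.575 CPM at R6, against 8.29, 9.67 and 2.95 CPM at V3, a call that was lost without R6 replicate 1 (log2 fold change -3.89, edgeR adjusted p = 0.0566). The call of the other, Glyma.15G026400, was lost without R6 replicate 2 or 3 or V3 replicate 2 (edgeR adjusted p from 0.0535 to 0.0791) and with the library totals (edgeR adjusted p = 0.17). Allene oxide synthase, which commits the pathway to jasmonate, was 9.53-fold higher at Glyma.11G122700 (log2 fold change 3.25, SE 0.56, edgeR adjusted p = 0.000712). At the far end of the pathway, JMT (Glyma.14G072300), which methylates jasmonate, had 0, 0 and 2 counts in the R6 libraries, against 66, 36 and 56 in the V3 libraries. It was thus at least 37.8-fold lower at R6 (edgeR adjusted p = 2.35e-05). MYC2 (Glyma.08G271900), a leading transcription factor of the jasmonate response, fell by 1.72 on the log2 scale (edgeR adjusted p = 0.000144), and by 0.71 with the library totals, short of the call.

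In the ethylene group, 3 of 12 tested loci rose (25%, near the 16.5% of all tested loci) and none fell (against 20.1%). The receptor ETR1 (Glyma.09G002600) had 34.05, 38.4 and 34.5 CPM at R6, against 11.75, 13.5 and 12.2 CPM at V3 (log2 fold change 1.51, SE 0.16, edgeR adjusted p = 2.86e-05). Of 3 loci of ACO4, which makes ethylene, 1 rose. This was Glyma.02G268200, with 12, 18 and 8 counts at R6, against 0, 0 and 0 at V3 (at least 1.42-fold higher, edgeR adjusted p = 0.0189), a call lost when counts were halved (edgeR adjusted p = 0.0532). Glyma.02G268000 had 217, 291 and 180 CPM at R6, against 303, 414 and 188 CPM at V3 and was not called (log2 fold change -0.40, and 0.74 with the library totals). Both loci of NCED3, the entry enzyme of abscisic acid synthesis under stress, fell, though at Glyma.08G176300 the stages overlapped. Glyma.15G250100 had 0.894, 1.55 and 1.79 CPM at R6, against 2.18, 93.15 and 285 CPM at V3 (log2 fold change -6.49, SE 1.28, edgeR adjusted p = 0.00171). The V3 libraries differed widely among themselves at this locus, and V3 replicate 1 was near the R6 level. SAG21, a small stress protein that rises in ageing Arabidopsis leaves, fell at both loci, at Glyma.10G017600 to 8.53, 6.46 and 9.26 CPM at R6, against 164, 105 and 63.4 CPM at V3. Both loci of OST1, a kinase of the abscisic acid signal in guard cells, rose, with log2 fold changes of 2.43 (Glyma.11G038800) and 1.71 (Glyma.01G204200).

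Of 30 tested loci grouped under salicylate and cell death, 11 rose (36.7%, against 16.5% of all tested loci) and 2 fell (6.67%, against 20.1%). The low share of falls rests on the grouping, since CAT2 of the cell death list, for example, was counted under photosynthesis. In the whole cell death list 9 of 29 rose (31%) and 5 fell (17.2%). In that of the salicylate response 23 of 55 rose (41.8%) and 8 fell (14.5%). MLO proteins, which hold back cell death at sites of mildew attack in barley, were higher at 6 of 11 loci. MLO8 Glyma.11G087500 had 72.5, 61.5 and 71.4 CPM at R6, against 3.90, 6.22 and 6.01 CPM at V3 (log2 fold change 3.67, SE 0.24, edgeR adjusted p = 1.02e-06). The 2 MLO3 loci parted, Glyma.19G179900 with a log2 fold change of 2.23 (SE 0.70, edgeR adjusted p = 0.0266) and Glyma.03G179200 with -2.55 (SE 0.75, edgeR adjusted p = 0.0166). Neither call was firm. The first was lost without R6 replicate 1 or 2 or V3 replicate 2 or 3 (edgeR adjusted p from 0.065 to 0.0814), and the second without R6 replicate 3 or V3 replicate 1 (edgeR adjusted p = 0.0626 and 0.0543) and with the library totals (edgeR adjusted p = 0.0638). SAG101 (Glyma.19G013200), a partner of PAD4 in immune signalling, had 9.44, 17.5 and 11.1 CPM at R6, against 2.97, 3.25 and 2.92 CPM at V3. Both loci of PAD4 had log2 fold changes near 0, of 0.23 and -0.03. PLP2 (Glyma.14G081300), a patatin-like lipid hydrolase that promotes cell death in Arabidopsis, had 86, 1215 and 109 counts at R6, against 2, 2 and 0 at V3, and was at least 43.9-fold higher (edgeR adjusted p = 0.00905). R6 replicate 2 stood far above the other R6 libraries, and without it the bound was 13-fold.

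In the transcription factor group 10 of 22 tested loci rose (45.5%, against 16.5% of all tested loci) and 3 fell (13.6%, against 20.1%). The group holds chosen families only. Other transcription factors of the lists were counted in other groups, such as MYC2 and GNC, which fell, or in none, such as MYB60 Glyma.03G006600, which also fell. The shares are therefore no result about transcription factors as a class. WRKY40 rose at 4 of 5 loci and ZAT10, a zinc finger repressor of the stress response, at both. WRKY40 Glyma.14G103100 had 5.21, 55.2 and 11.4 CPM at R6, against 0.561, 0.0813 and 0 CPM at V3 (log2 fold change 6.73, SE 1.47, edgeR adjusted p = 0.00312). Its neighbour Glyma.14G102900 was also highest in R6 replicate 2, at 19.8 CPM, against 2.63 and 4.85 CPM in R6 replicates 1 and 3. ZAT10 was more even, with 20.6, 14 and 11 CPM at R6 at Glyma.04G044900, against 1.02, 1.42 and 0.925 CPM at V3. The NAC factors parted. ATAF1 rose at Glyma.06G157400, with 14.35, 25.4 and 22.15 CPM at R6, against 2.25, 2.68 and 1.39 CPM at V3 (log2 fold change 3.295, SE 0.65, edgeR adjusted p = 0.00162). It fell at Glyma.04G249000, with 10.9, 14.8 and 13.7 CPM at R6, against 46.5, 69.5 and 76.4 CPM at V3 (log2 fold change -2.28, SE 0.31, edgeR adjusted p = 0.000132), and at a further locus. NAP (Glyma.07G229100), a promoter of leaf senescence in Arabidopsis, had 1.87, 1.66 and 1.85 CPM at R6, against 0.330, 0.731 and 0.142 CPM at V3. Its call (log2 fold change 2.18, SE 0.74, edgeR adjusted p = 0.0312) was lost without any one of the GmNAC81-3 libraries except V3 replicate 2 (edgeR adjusted p from 0.0522 to 0.103). Both loci of SPATULA, a growth-restraining factor of the bHLH class, rose, Glyma.11G054600 to 11.8, 10.95 and 10.1 CPM at R6, against 0.396, 0.488 and 0.747 CPM at V3.

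Of 20 tested clock and light loci of the lists, 8 were higher (40%, against 16.5% of all tested loci) and 8 lower (40%, against 20.1%). The stages were apart at 18 (90%, against 52.2%). The time of day at which the leaves of each stage were taken was not given in the sources used here. FKF1 (Glyma.05G239400), a blue-light receptor that times flowering, had 55.4, 34.9 and 58.2 CPM at R6, against 0.396, 0.244 and 0.0711 CPM at V3 (log2 fold change 7.68, SE 0.61, edgeR adjusted p = 3.37e-06). COL9 (Glyma.20G060400), a relative of the flowering factor CONSTANS, was 25.7-fold higher, and the RNA-binding protein GRP7 (Glyma.11G117600) 28.0-fold. The PRR5 repressors of the clock split, with 1 locus higher and 4 lower. Glyma.06G136600 had 82.98, 61.4 and 95.1 CPM at R6, against 7.66, 2.6 and 1.78 CPM at V3 (log2 fold change 4.31, SE 0.55, edgeR adjusted p = 9.09e-05). Glyma.07G049400 had 18.8, 26.3 and 20.98 CPM at R6, against 123, 275 and 310 CPM at V3 (log2 fold change -3.42, SE 0.33, edgeR adjusted p = 1.34e-05). The blue-light receptor PHOT1 split likewise, by 3.85 (Glyma.12G074100) and -2.50 (Glyma.15G043600) on the log2 scale.

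Members of a family parted strongly among the transporters. Of 7 loci of the transporter PDR12, an importer of abscisic acid in Arabidopsis, 2 rose and 2 fell. Glyma.13G361900 had 684, 687 and 654 CPM at R6, against 57.5, 47.1 and 34.3 CPM at V3 (log2 fold change 3.87, SE 0.33, edgeR adjusted p = 5.9e-06). Glyma.14G127800 had 0.960, 1.52 and 1.25 CPM at R6, against 179, 122 and 129 CPM at V3 (log2 fold change -6.85, SE 0.47, edgeR adjusted p = 1.46e-06). All 3 loci of MRP4, a transporter of guard cells, fell, Glyma.19G210700 by 41.6-fold. With the library totals only 1 of the 3 was called, and Glyma.10G019000 was not (log2 fold change -0.77, edgeR adjusted p = 0.167). Both loci of chalcone synthase, the first enzyme of flavonoid synthesis, rose. Glyma.01G228700 had 61.5, 337 and 67.8 CPM at R6, against 4.85, 9.22 and 4.62 CPM at V3 (log2 fold change 4.64, SE 1.00, edgeR adjusted p = 0.00286). Here again R6 replicate 2 was the highest.

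In other families every tested member rose. All 4 loci of OXS3, a protein of oxidative stress tolerance in Arabidopsis, rose, with log2 fold changes from 4.45 to 5.21, and so did all 3 of HD2C, a plant histone deacetylase, from 1.61 to 2.22. The size is uncertain at OXS3 Glyma.05G225900 (log2 fold change 4.95, SE 1.39), with 398, 122 and 641 counts at R6, against 0, 2 and 14 at V3. GSTU7, a glutathione transferase, rose at 4 of 5 loci. SQE1, an enzyme of sterol synthesis, fell at 2 of 3. Of the 62 families with 2 or more tested loci, 9 had all of them called higher, 9 all called lower, 8 had calls in both directions and 11 had none. At 12 loci of the receptor kinase FERONIA, by contrast, 2 fell and the others were not called, and with the library totals 1 of these 2 changed sign. With those totals, falls were called again at 4 of 7 loci in the nitrogen and carbon group, 5 of 8 in clock and light, 6 of 8 in transport and secondary metabolism, and none of 2 in salicylate and cell death.

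The lists behind the named families come from supplementary tables of the study. They were chosen on a comparison of GmNAC81-3 with BR16 at V3, which shares the V3 libraries used here, so that their counts are not independent evidence of a direction. Of 392 tested, 25.8% were higher, against 16.5% of all loci, and 23.2% were lower, against 20.1%, and the stages were apart at 66.8%, against 52.2%. Among lists with 10 or more tested loci, programmed cell death had the highest share of rises, with 7 of 12 higher (58.3%) and none lower (median log2 fold change 2.93). Drought stress followed with 24 higher and 10 lower of 53, and salicylate response with 23 higher and 8 lower of 55. The circadian list had 16 higher and 22 lower of 56. As over all tested loci, falls outnumbered rises in leaf senescence, with 6 higher (9.52%) and 15 lower (23.8%) of 63. So they did in wounding, with 23 (19%) and 31 (25.6%) of 121, and in aging, with 2 (18.2%) and 4 (36.4%) of 11. The shares lower in leaf senescence and wounding were near the 20.1% of all loci. With the library totals, the count in leaf senescence turned to 28 higher and 11 lower, that in wounding to 49 higher and 13 lower, that in the circadian list to 25 higher and 14 lower, and that in aging to 3 each. Cell death had 9 higher and 5 lower of 29, ethylene response 12 and 9 of 62, fruit ripening 2 and 0 of 7, vacuolar protein processing 3 and 0 of 4, negative regulation of leaf senescence 1 and 2 of 6, and regulation of leaf senescence no call among 2. Of the 6 loci chosen for RT-qPCR, JMT fell, MLO3 Glyma.19G179900 rose, NRT1.5 Glyma.09G237600, KIN10 and KTI1 Glyma.08G235400 were not called, and the serine protease inhibitor SPI had too few counts to be tested. KTI1 Glyma.08G235400 had 20, 22 and 24 counts at R6, against 0, 0 and 2 at V3 (edgeR adjusted p = 0.358), and was called without BR16 V3 replicate 2 (edgeR adjusted p = 0.0042), a library that bears only on the shared estimate of spread, and with the 6 GmNAC81-3 libraries alone (edgeR adjusted p = 0.0157).

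**Figure D4:**
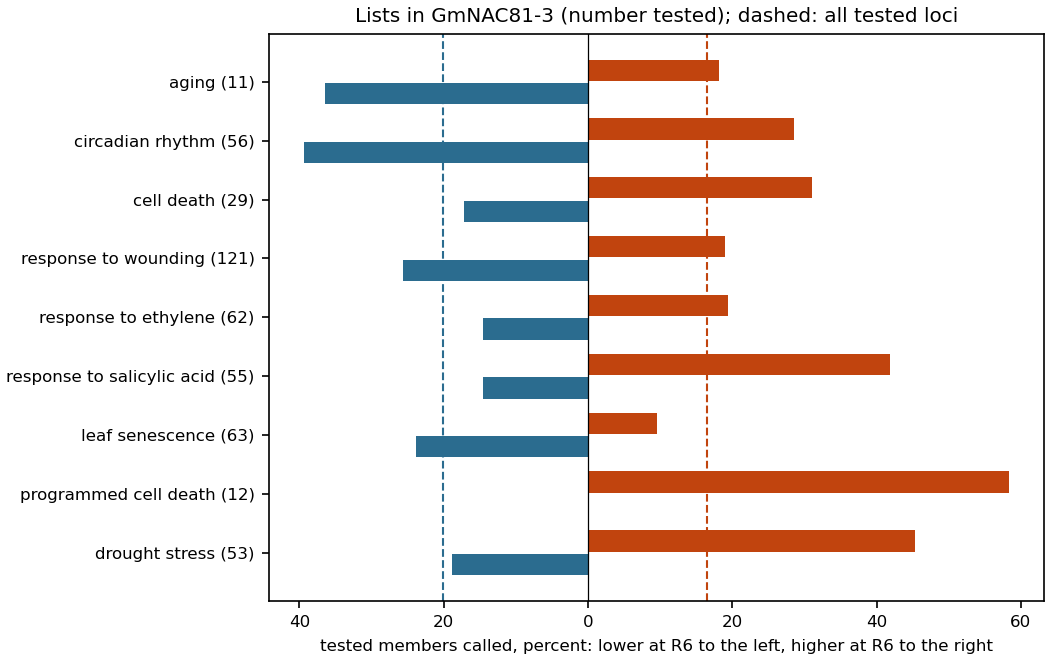
Percent of the tested loci of each list (with 10 or more tested, number in brackets) called higher at R6 (to the right) and lower at R6 (to the left) in GmNAC81-3, with dashed lines at the 16.5% and 20.1% of all tested loci. Programmed cell death, drought stress and salicylate response pass the dashed line on the right the farthest, and the circadian list passes both lines.

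The largest rises and falls above the floor of 3 counts were at loci without a name in the sources used here. Among called loci with stages apart and more than 3 counts in each of the 6 libraries, 4679 higher and 5956 lower, the 8 largest rises had log2 fold changes from 7.12 to 9.01 and the 8 largest falls from -9.56 to -8.41. The largest rise was at Glyma.07G208700, with 117, 48.7 and 117 CPM at R6, against 0.165, 0.163 and 0.213 CPM at V3. Glyma.02G136700 came next, at 186, 105 and 197 CPM at R6, against 0.396, 0.569 and 0.213 CPM at V3, though DESeq2 gave it no adjusted p. The largest fall was at Glyma.08G138200, with 5.28, 1.51 and 5.89 CPM at R6, against 1417, 4336 and 3826 CPM at V3. Glyma.10G243800 had 1.52, 1.51 and 0.192 CPM at R6, against 959, 750 and 567 CPM at V3. Among called loci, the 6 greatest losses of CPM, with RCA as the least of them, added up to 105300 CPM, and the 6 greatest gains, with both leading γVPE loci and PDR12 among them, to 4085 CPM. The sum of the losses was 69860 CPM without V3 replicate 1. With TMM the CPM of a library add up to more at V3 than at R6. Losses and gains thus cannot be set against each other as absolute amounts. The 3 loci that led the libraries are not in these sums, since they were not called. Among loci at or under 3 counts in every library of a stage, the median lower bound of the fold was 3.14 for rises and 8.83 for falls. The floor was 3 counts in the smallest effective library, of 24616001 at V3 for rises and 60408529 at R6 for falls. The medians therefore cannot be compared as sizes of change. A PLP-dependent transferase (Glyma.07G059000) had no count in any R6 library and 3.76 CPM on average at V3, and was at least 75.6-fold lower.

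The calls were spread over the range of levels and over the genome. Rises were most frequent at middle levels, with 19.2% of the loci between 1.21 and 5.9 CPM called higher and 17.1% lower. Falls were most frequent above that, with 15.3% higher and 22.9% lower. By chromosome, the share called higher lay between 14.6% on chromosome 9 and 20.4% on chromosome 16, and the share called lower between 16.2% on chromosome 20 and 22.5% on chromosome 14.

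Beside this, ageing in BR16 gave 5945 loci higher (15.1% of those tested) and 7731 lower (19.6%). These comparisons share no library. Of the rises in GmNAC81-3, 4254 were also rises in BR16, which is 65.5% of the GmNAC81-3 rises and 71.6% of the BR16 rises. Of the falls, 5939 were shared, 75.0% of those in GmNAC81-3 and 76.8% of those in BR16. Only 12 loci were called in opposite directions. The fitted change was the larger in GmNAC81-3 at 2415 of the 4254 shared rises and 3435 of the 5939 shared falls. These are counts of loci and were not tested. Of 4205 loci called in GmNAC81-3 and not in BR16, 3780 had the same sign in BR16 and 967 had an adjusted p under 0.05 there.

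The difference between the ageing of GmNAC81-3 and that of BR16 was tested itself, and passed at 28 loci (0.071% of those tested), 9 with a more positive and 19 with a more negative change in GmNAC81-3. Of the 4205 loci, 12 were among these, so that a call in GmNAC81-3 alone was seldom a difference that could be shown. At an unadjusted p under 0.05 the count was 5164, and DESeq2 gave 479 more positive and 561 more negative. Same-numbered V3 libraries of the genotypes deviated together (r = 0.404, 0.221 and 0.129), while same-numbered R6 libraries did not (r = -0.147, -0.366 and -0.119). Differently numbered pairs gave r from -0.352 to 0.208 at V3 and from -0.323 to 0.415 at R6. In a fit blocked on the replicate numbers, 1 more positive and 5 more negative locus passed. The count hung on single libraries. Without GmNAC81-3 V3 replicate 1 it was 192 more positive and 100 more negative, and with each of the other 11 libraries left out in turn it lay between 1 and 37 more positive and between 0 and 64 more negative. No locus of the lists passed in edgeR, where the smallest adjusted p was 0.0527. An unadjusted p under 0.05 was met at 137 of 392 (34.9%, against 13.1% of all tested loci). In DESeq2, 47 of 392 passed (12%, against 2.64%), and in edgeR without GmNAC81-3 V3 replicate 1, 18. Since the lists were chosen on the V3 difference between the genotypes, which is a part of the difference tested here, nothing is read from these shares.

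The members are therefore given side by side. KIN10 (Glyma.08G240400) changed by 0.95 in GmNAC81-3 and by 3.84 in BR16 on the log2 scale (difference -2.88, edgeR adjusted p = 0.11). GmNAC81 (Glyma.12G022700) changed by -0.82 in GmNAC81-3 and by 2.72 in BR16 (difference -3.54, edgeR adjusted p = 0.154). The γVPE Glyma.17G230700 rose by 3.48 in GmNAC81-3 and by 5.90 in BR16 (difference -2.42, edgeR adjusted p = 0.32), and averaged at V3 114 CPM in GmNAC81-3 and 10.6 CPM in BR16. Rubisco activase Glyma.11G221000 fell by 5.31 in GmNAC81-3 and by 3.97 in BR16 (difference -1.34, edgeR adjusted p = 0.392). In the drought list, 24 loci were called higher and 10 lower in GmNAC81-3, against 10 and 14 in BR16, and in programmed cell death 7 and none, against 2 and 1 in BR16. The lists were chosen on the V3 difference between the genotypes, which enters both changes, so that these counts are no evidence of a difference in ageing, and none of these members passed the test of the difference.

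**Figure D5:**
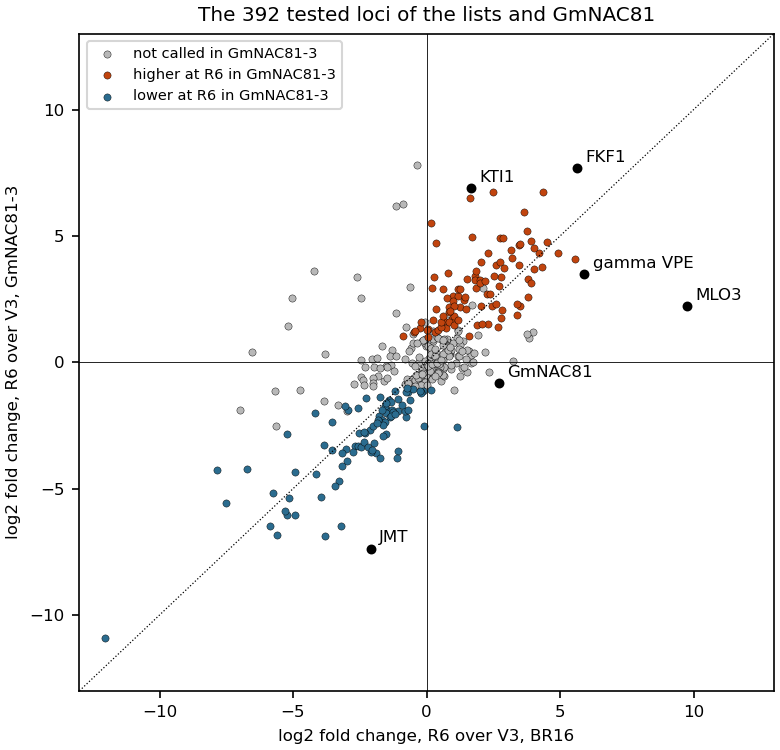
Log2 fold change of R6 over V3 in GmNAC81-3 (vertical axis) against that in BR16 (horizontal axis) for the 392 tested loci of the lists, coloured by the call in GmNAC81-3, with GmNAC81, FKF1, γVPE, KTI1, MLO3 and JMT in black and a dotted line of equal change. Points cluster along the line, no listed locus was called in opposite directions, and loci far from the line, such as MLO3 and KTI1, include ones with few counts in a stage.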

How the data were processed

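Leaf RNA of GmNAC81-3 and BR16, at R6 (80 DAG) and V3 (20 DAG), was measured in 12 stranded, paired-end libraries, 3 per group. The deposited values are the authors' raw counts, without normalization, on 84783 entries. The sources disagree on the mapping. The supplementary methods give Bowtie 2, the genome Wm82.a2.v1 and Rsubread, and the submitters' processing notes HISAT2 2.1.0 and featureCounts. How reads shared by close copies were counted was not given in the sources used here. Between 81.7% and 84.9% of the counts below 50 in the GmNAC81-3 libraries were even, as when both reads of a pair are counted, so that counts may overstate the fragments.

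Counts were summed per locus, which joined 15055 loci of several models, and analysed in R 4.3.3 with edgeR 4.0.16: filterByExpr over the 4 groups, TMM, 1 model of 4 group means over all 12 libraries, the quasi-likelihood test and Benjamini-Hochberg adjustment over 39443 loci. The p-values rest on the spread between single plants within the 4 groups, pooled over GmNAC81-3 and BR16. They do not cover differences between transgenic lines, since only 1 was used. Fold bounds set the mean CPM of one stage against 3 counts in the smallest library of the other, and cover counting error only. In counts simulated for R6 minus V3 of GmNAC81-3, 200 loci were changed. Of those changed by 2 on the log2 scale, 60% were called the right way, and of those changed by 4, 89%. Of 39243 unchanged loci, 9 were called, though only 38751 loci in all were tested. The simulation took its means, spread and TMM sizes from the fit and changed far fewer loci than were called here. It therefore cannot test the scaling or give the rate of false calls in these data.

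Gene names are those of Arabidopsis homologues in the study's supplementary tables, since the files do not pair loci with names and the reference table given could not be matched to them. The members and lists were chosen with earlier results of these data known. The rule for named loci took GmNAC81, ERD15, the VPE loci and the 6 loci measured by RT-qPCR, the 8 largest rises and falls, the 6 greatest gains and losses of CPM, the 3 highest bounds each way, in each list the 2 called members of each direction with the highest CPM, and the loci called both here and in the difference with the 4 highest and 4 lowest differences, none of which has a name. Of the loci without a name, 2 that rose and 2 that fell are printed. Other family members were chosen after their values were seen. DESeq2 1.42.0, other scalings, filters, thresholds, halved counts, a replicate block and leaving out each library were tried as alternatives. Promoter motifs and markers of other tissues were not analysed here, for want of sequences and descriptions. No column was left out.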

Additional observations from a re-analysis of the deposited data

Results flagged for a closer look

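The change between stages differed between GmNAC81-3 and BR16 at 28 loci by edgeR's quasi-likelihood test of the difference itself (9 more positive and 19 more negative in GmNAC81-3, 0.071% of those tested). Of the 28, 22 were also called for ageing in GmNAC81-3.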

How the results depend on the processing

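In GmNAC81-3, DESeq2 gave 6819 rises and 8368 falls, DESeq2 size factors in edgeR 6399 and 8001, and counts halved for read pairs 6049 and 7501. Leaving out each of the 12 libraries in turn gave 5829 to 6717 rises and 7063 to 7965 falls. A minimum of 10 counts in every library left 3829 rises and 5311 falls, with fewer loci tested. With library totals in place of TMM there were 18682 rises and 3975 falls, 187 and 56 of them in the lists, and 4 named loci, none of them called, changed sign: GmNAC81 (0.335), LOX2 Glyma.12G054700 (0.145), ACO4 Glyma.02G268000 (0.737) and a DHHC zinc finger protein, Glyma.01G142300 (0.692, and between -0.472 and 0.0595 with a GmNAC81-3 library left out). The cause was not tested.

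The difference between the genotypes was the unstable result. DESeq2 gave 479 and 561 loci, 47 of them in the lists. With 1 library left out, the more positive loci numbered 1 to 192, the more negative 0 to 100 and those in the lists 0 to 18, each highest without GmNAC81-3 V3 replicate 1. Same-numbered libraries of the stages were not paired by their labels, and their deviations did not go together (r = -0.00892, 0.115 and -0.0248). Between the genotypes the same-numbered pairs went together at V3 (r = 0.404, 0.221 and 0.129) and against each other at R6 (r = -0.147, -0.366 and -0.119). Differently numbered pairs of the genotypes gave r from -0.352 to 0.208 at V3 and from -0.323 to 0.415 at R6. A replicate block gave 6316 rises and 7543 falls in GmNAC81-3, and 1 more positive and 5 more negative locus in the difference.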
